A study of Mus musculus with 8 samples.

Results

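Platelets, which are shed by megakaryocytes (MKs) of the bone marrow, live for a set number of days that the BCL2 family of apoptosis proteins is known to fix. The 9 genes described here belong to the mitochondrial pathway of apoptosis, in which that family acts. The genes were chosen by symbol, as all rows of the deposited count table named Bcl2l1, Bcl2, Mcl1, Bax, Bak1, Bid, Bcl2l11, Apaf1 and Casp9, which gave 9 of its 13387 genes. All 9 passed the filter on low counts, as did 11722 genes in all. The comparison asks how their transcripts differed between MKs cultured alone and MKs cocultured with mesenchymal stem cells (MSCs), stromal cells of the marrow that support blood formation.

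The 8 bulk RNA-Seq libraries came from C57BL/6 mice, with 4 libraries of MKs cultured alone and 4 of MKs cocultured with MSCs, each after 18 hours. MKs had been enriched from marrow with CD41 beads and large cell columns, and the MSCs were sorted as CD45-, Ter119-, CD31-, CD51+ and CD140a+ cells. Wells were pooled for each library, the labels name no drug or genetic change in either group, and by the study's methods the mice were young adults. The labels describe MKs separated from the platelets, whereas the methods describe platelets. The study counts its replicates in this assay as mice, but the labels tie no library to a mouse, so the p-values measure the spread between these libraries.

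In the mitochondrial pathway of apoptosis, pro-survival proteins such as BCL-xL (encoded by Bcl2l1), BCL2 and MCL1 hold back BAX and BAK, which otherwise open pores in the outer mitochondrial membrane. BH3-only proteins such as BID and BIM (encoded by Bcl2l11) carry death signals to both classes. Once pores open, cytochrome c joins APAF1 to form the apoptosome, which activates caspase 9, and in platelets BCL-xL restraint of BAK is known as the clock that sets circulating lifespan.

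The promoters of 3 members are printed because Bcl2l1 and Bax were the members called higher in the cocultures and Mcl1 was the most abundant per kilobase in MKs cultured alone, and that of Mdm2 because it is a textbook p53 target. Each runs 5′ to 3′ over 250 bases upstream of the transcription start in RefSeq GRCm38.p6. Capitals mark matches to the p53 decamer consensus, searched on both strands. The windows are chr2:152831729-152831978 on the minus strand for Bcl2l1 (the most upstream of 3 starts), chr7:45466899-45467148 on the minus strand for Bax, chr3:95658471-95658720 on the plus strand for Mcl1 and chr10:117710759-117711008 on the minus strand for Mdm2.
Bcl2l1: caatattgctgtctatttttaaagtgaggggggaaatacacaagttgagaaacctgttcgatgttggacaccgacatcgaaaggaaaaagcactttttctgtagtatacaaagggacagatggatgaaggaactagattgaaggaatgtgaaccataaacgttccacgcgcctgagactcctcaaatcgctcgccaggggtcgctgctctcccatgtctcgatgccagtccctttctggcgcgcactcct
Bax: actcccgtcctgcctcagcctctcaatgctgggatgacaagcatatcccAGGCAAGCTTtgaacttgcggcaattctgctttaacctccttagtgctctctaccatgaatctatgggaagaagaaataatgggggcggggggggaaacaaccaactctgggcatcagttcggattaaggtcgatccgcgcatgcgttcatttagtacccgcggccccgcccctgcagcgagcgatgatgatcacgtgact
Mcl1: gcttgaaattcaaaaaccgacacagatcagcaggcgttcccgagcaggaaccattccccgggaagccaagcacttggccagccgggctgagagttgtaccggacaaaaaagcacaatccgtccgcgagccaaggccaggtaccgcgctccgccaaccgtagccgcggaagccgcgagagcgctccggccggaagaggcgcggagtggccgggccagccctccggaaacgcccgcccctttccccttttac
Mdm2: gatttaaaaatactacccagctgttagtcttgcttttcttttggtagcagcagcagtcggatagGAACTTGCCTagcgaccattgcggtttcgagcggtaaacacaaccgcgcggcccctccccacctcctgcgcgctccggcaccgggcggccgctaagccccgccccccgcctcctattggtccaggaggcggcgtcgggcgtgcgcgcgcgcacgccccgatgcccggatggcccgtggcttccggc
The decamer was found once in the Bax window and once in the Mdm2 window, and not in those of Bcl2l1 and Mcl1. All 9 members had a promoter in the table, and 1 of the 9 windows held the decamer, beside 7.13% of 32851 promoters of the same length. No member window held the NF-kB consensus, which 3.90% of promoters did. A match describes letters in a window, and is neither a bound site nor a cause.

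Totals ran from 4939874 to 12523616 counts per library. Replicate 3 of the cocultures stood apart, where 1012 genes had no count although each of the 7 other libraries held 10 or more, while the other libraries had 0 to 4 genes of this kind, and the results of the members and of the called pathway genes are therefore given with and without it. MK and platelet markers were present in all libraries, except that Gp6, the collagen receptor gene of platelets, had no count in coculture replicate 3. Their summed level was 1959 to 2266 CPM (read counts scaled to library size with edgeR's TMM factors) in MKs cultured alone and 1762 to 2388 CPM in the cocultures over 15 of 15 genes. Pf4 (platelet factor 4) led this list with 623 to 1116 CPM and 795 to 1601 CPM. Of the 15 genes, 3 were lower in every coculture and 0 were higher in every coculture. Most other cell types moved with the groups. Summed MSC markers (11 of 12 in the table) were at 125 to 135 CPM in MKs cultured alone and 1177 to 3973 CPM in the cocultures, and replicate 3 was the lowest of these. Sparc, a matrix protein gene, led them with 0.103 to 1.10 CPM and 548 to 1419 CPM, while Lepr and Kitl, which define marrow MSCs and, like Gp6, were named after their values were seen, were at 0 in replicate 3. Neutrophil markers (10 of 10) summed to 84307 to 86085 CPM alone and 4290 to 10185 CPM in the cocultures, and S100a8 led them with 44169 to 53730 CPM and 1506 to 5824 CPM. B cell markers (8 of 8, led by Ms4a1 with 297 to 476 CPM and 4.604 to 88.3 CPM) went from 882 to 942 CPM alone to 91.1 to 233 CPM. Eosinophil markers (6 of 6, led by Prg2) went from 1020 to 1676 CPM to 12.03 to 63.3 CPM, and mast cell and basophil markers (5 of 6, led by Cpa3) from 957 to 1131 CPM to 88.4 to 232 CPM. Macrophage markers summed to 12727 to 17644 CPM alone and 9742 to 11950 CPM in the cocultures. Lyz2 led them with 12570 to 17410 CPM and 8588 to 10220 CPM. The lower sum in the cocultures follows Lyz2, whereas 8 of the 10 markers were higher in every coculture. Erythroid markers (7 of 8, led by Hbb-bs) summed to 29.4 to 41.3 CPM and 18.4 to 63.9 CPM, with the highest value in replicate 3. Except for MK and platelet and for erythroid markers, whose sums overlapped between groups, these marker sums moved with every gene difference given below. The part of the markers' cell types in those differences was not tested. In bulk RNA, fewer cells of a type and less RNA per cell cannot be told apart. Neutrophil marker sums exceeded those of MKs and platelets in every library, so the levels below are those of mixed RNA. Which cells held the RNA of the members was not tested.

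Coculture with MSCs was accompanied by higher Bax and Bcl2l1 and by no called change in the 7 other members. Calls required a 2-fold or larger difference, an adjusted p of 0.05 or less (edgeR's quasi-likelihood test, Benjamini-Hochberg over all genes tested) and 1 CPM or more in the mean of either group. By this rule 2 of 9 members were higher, where 13.2% of all genes tested were higher. The count of members called lower was 0, beside 7.31% of all genes. At an unadjusted p under 0.05 in edgeR, 1 member was lower, and the share of all genes at that cutoff was not computed. DESeq2 also called 2 higher and 0 lower, beside 15.8% and 10.7% of all genes, but gave Bak1 no adjusted p. Both directions together made 20.5% of all genes, so the share of members called was close to that of the table. The median log2 difference was -0.35 over the 9 members, of which 4 were positive, and 0.03 over all genes. Without coculture replicate 3 the same 2 members were called, the background was 20.6% higher and 15.4% lower (36.0% in all), and the median of the members was -0.39 beside 0.03. The replicate block called 2 higher (9.35% of all genes) and 0 lower (4.89%). Only Bax was called without replicate 1 of MKs cultured alone (8.77% of all genes higher) and with a gene length correction joined to the block (7.00%). Mcl1 was called lower on the adjusted p alone (8.75% of all genes), and Bcl2 with the block when replicate 3 was left out (15.5%), a fit chosen after seeing the data.

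**Figure D1:**
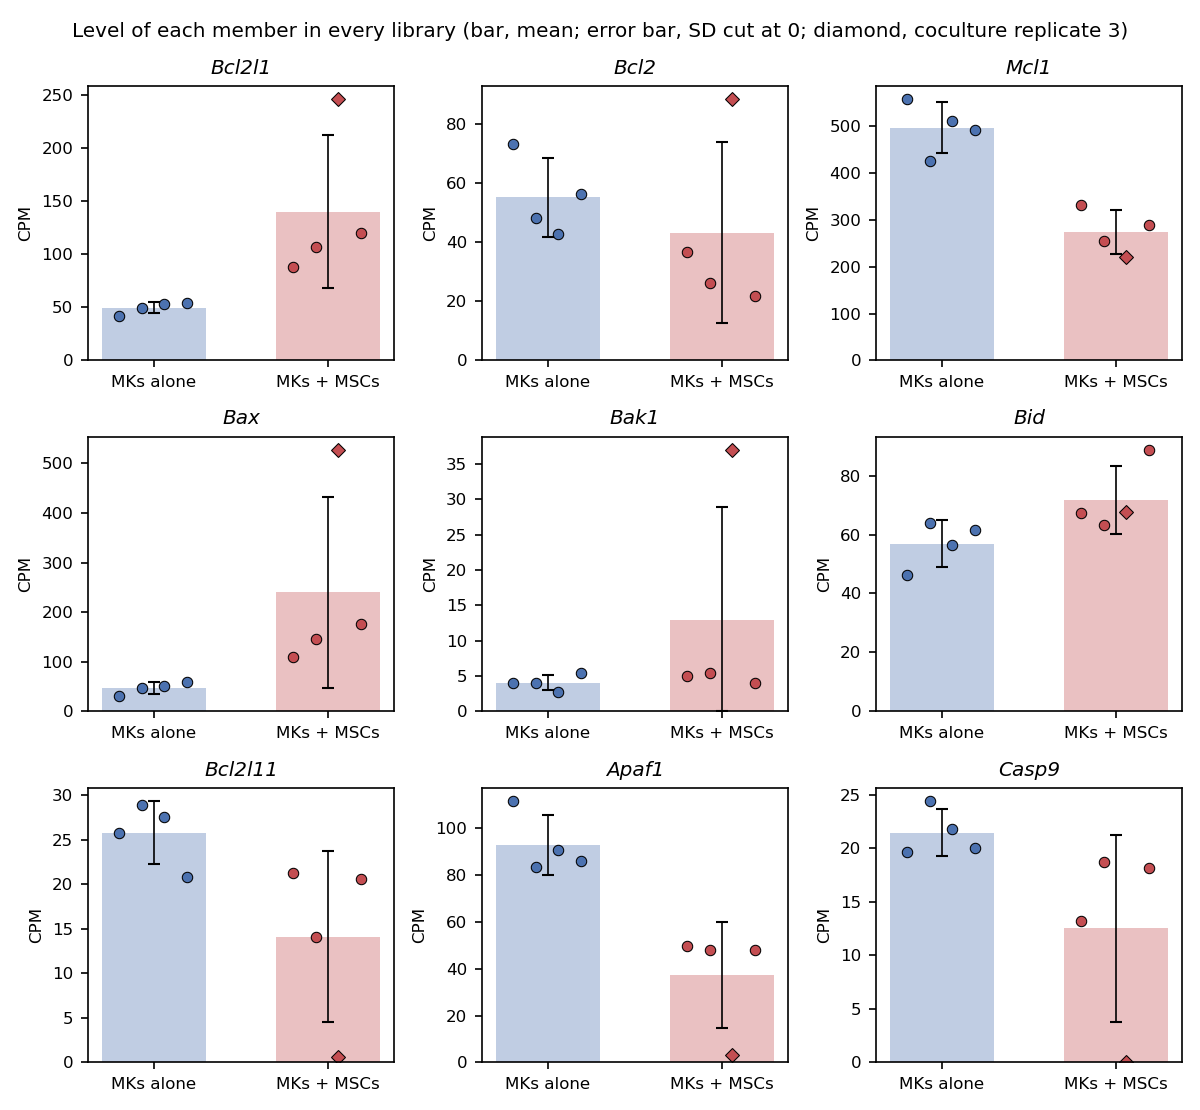
Level of each of the 9 members in CPM (vertical axes, from 0) in every library of MKs cultured alone (blue) and cocultured with MSCs (red). Bars are means, error bars SD (n = 4), and the diamond is coculture replicate 3, which is the highest library for Bcl2l1, Bcl2, Bax and Bak1 and the lowest for Mcl1, Bcl2l11, Apaf1 and Casp9.

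Among the pro-survival members, Bcl2l1 rose, Mcl1 was lower by less than the fold cutoff and Bcl2 did not pass the test. Bcl2l1 (chromosome 2, 152780668 to 152831728 on GRCm38) encodes BCL-xL, the main survival protein of platelets. It was at 42.2, 49.5, 53.1 and 54.2 CPM in replicates 1 to 4 of MKs cultured alone and at 88.1, 107, 246 and 120 CPM in those of the cocultures. Every coculture was above every library of MKs alone, and replicate 3 was the highest by a wide margin. The difference was 2.82-fold (log2 1.5 ± 0.33 SE, adjusted p = 0.0127), and 2.08-fold without coculture replicate 3 (log2 1.05 ± 0.18, adjusted p = 8.93e-05). The call was lost without replicate 1 of MKs cultured alone (log2 1.41, adjusted p = 0.0501) and with a gene length correction joined to a replicate block (log2 1.66, adjusted p = 0.111). The length correction alone gave a difference of 4.62-fold.

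Mcl1, which MKs use together with BCL-xL to survive, was the most abundant member per kilobase in the mixed RNA of MKs cultured alone. Its level was 558, 426, 512 and 492 CPM in MKs cultured alone and 331, 255, 222 and 288 CPM in the cocultures. Every coculture lay below every library of MKs alone, and replicate 3 was the lowest. The log2 difference was -0.86 ± 0.19 (adjusted p = 0.0109), a fold of 1.81, which is under the cutoff, and -0.79 ± 0.17 without replicate 3 (adjusted p = 0.00109). With the length correction the adjusted p was 0.145. Mcl1 lies on chromosome 3 from 95658788 to 95663176.

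Bcl2, the founding member of the family, was at 73.3, 48.2, 42.7 and 56.3 CPM in MKs cultured alone and at 36.6, 26.3, 88.3 and 21.7 CPM in the cocultures. Replicate 3 was the highest of all libraries, while the other cocultures lay below every library of MKs alone. Its log2 difference of -0.35 ± 0.46 (adjusted p = 0.626) became 0.78 with the gene length correction (adjusted p = 0.503). Without replicate 3 it was -0.97 ± 0.23 (adjusted p = 0.00218), a fold of 1.96 that stayed short of the cutoff, and a replicate block added after seeing the data gave a call at -1.10 (adjusted p = 6.07e-06). Bcl2 (chromosome 1, 106538178 to 106714274) shares 558 exon bases with the antisense gene D630008O14Rik, and since the use of strand in counting is not given, reads there cannot be told apart.

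Bax and Bak1 encode the proteins that form the mitochondrial pores. Bax (chromosome 7, 45461697 to 45466898) was at 32.0, 46.8, 52.2 and 59.9 CPM in MKs cultured alone and at 111, 146, 527 and 175 CPM in the cocultures. Here too every coculture was above every library of MKs alone, with replicate 3 far above the rest. Bax rose 5.02-fold (log2 2.33 ± 0.50, adjusted p = 0.0110), and 2.96-fold without replicate 3 (log2 1.57 ± 0.22, adjusted p = 1.24e-05). The call was kept when each library was left out in turn, with a highest adjusted p of 0.0461. An annotated gene on the same strand, Gm45808, shares 192 exon bases with it.

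Bak1 encodes BAK, the effector that BCL-xL restrains in platelets, and was the least abundant member in MKs cultured alone. It was at 3.97, 4.02, 2.77 and 5.37 CPM there and at 5.02, 5.47, 36.9 and 3.99 CPM in the cocultures. Only replicate 3 left the range of a few CPM, and the other cocultures overlapped MKs alone. The log2 difference was 1.67 ± 0.82 (adjusted p = 0.180), and 0.25 ± 0.36 without replicate 3 (adjusted p = 0.573). Bak1 (chromosome 17, 27019810 to 27029009) shares 437 exon bases with Ggnbp1 on the other strand.

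The BH3-only members did not pass the test. Bid, whose product is cut by caspase 8 to link death receptors to mitochondria, was at 46.1, 63.8, 56.3 and 61.5 CPM in MKs cultured alone and at 67.2, 63.2, 67.5 and 88.6 CPM in the cocultures. The groups overlapped narrowly, and replicate 3 was within the range of the other cocultures. Its log2 difference was 0.33 ± 0.22 with all libraries (adjusted p = 0.316) and 0.33 ± 0.19 without replicate 3 (adjusted p = 0.141). Bid (chromosome 6, 120891930 to 120916853) shares 628 exon bases with Bcl2l13 on the other strand.

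Bcl2l11 encodes BIM, which binds all pro-survival members. Its level was 25.8, 29.0, 27.6 and 20.8 CPM in MKs cultured alone and 21.2, 14.1, 0.628 and 20.6 CPM in the cocultures. The value in replicate 3 rests on 6 counts, against 108 to 224 counts in the other cocultures. Groups overlapped, with a log2 difference of -0.87 ± 0.79 (adjusted p = 0.469) and of -0.49 ± 0.23 without replicate 3 (adjusted p = 0.0770). Bcl2l11 lies on chromosome 2 from 128126038 to 128162547.

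Of the apoptosome, Apaf1 encodes the scaffold and Casp9 the initiator caspase. Apaf1 (chromosome 10, 90989311 to 91082770) was at 112, 83.4, 90.6 and 86.2 CPM in MKs cultured alone and at 49.95, 48.2, 3.24 and 48.2 CPM in the cocultures. All cocultures lay below all libraries of MKs alone, 3 of them within a narrow band and replicate 3 far below on 31 counts. The log2 difference was -1.31 ± 0.65 (adjusted p = 0.185). Leaving out replicate 3 reduced both the size and the error, to -0.95 ± 0.17 (adjusted p = 0.000231), a fold of 1.93 that is under the cutoff.

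Casp9 (chromosome 4, 141793612 to 141815976) was at 19.6, 24.4, 21.8 and 20.01 CPM in MKs cultured alone and at 13.2, 18.8, 0 and 18.2 CPM in the cocultures. Replicate 3 held no count, which allows a level of up to 0.314 CPM (3 counts, counting error only). The remaining cocultures also lay below MKs alone, replicates 2 and 4 narrowly so. The log2 difference was -0.78 ± 1.06 (adjusted p = 0.638), and -0.39 ± 0.22 without replicate 3 (adjusted p = 0.150). Casp9 shares 94 exon bases with Cela2a and Ctrc on the other strand.

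Groups did not overlap for 5 of the 9 members, namely Bcl2l1 and Bax with higher cocultures and Mcl1, Apaf1 and Casp9 with lower cocultures. Among all genes tested, 40.3% did not overlap, 19.3% with higher and 21.1% with lower cocultures.

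**Figure D2:**
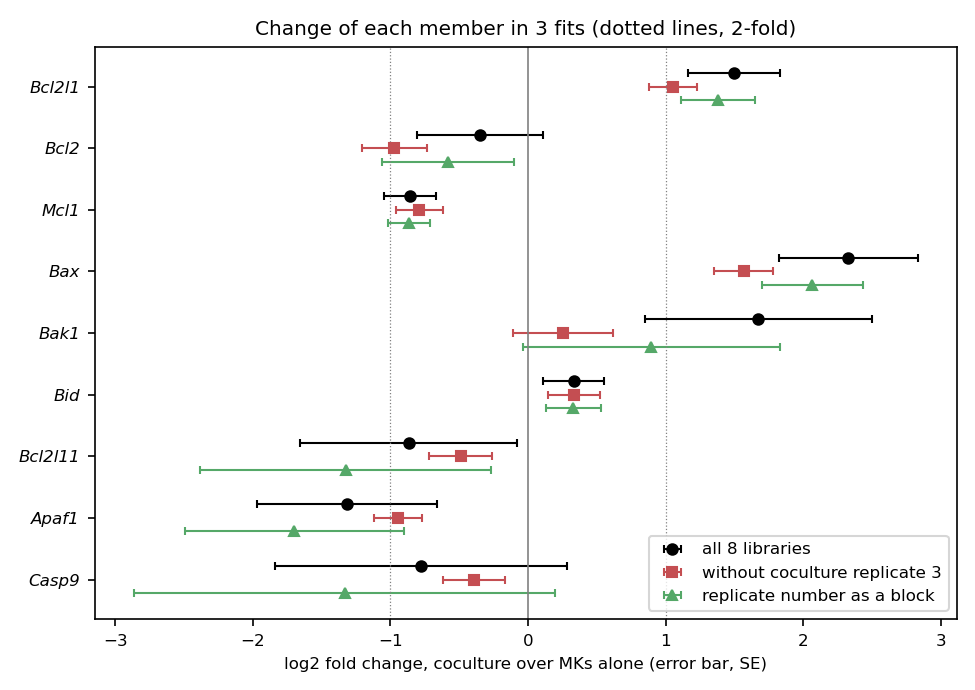
Log2 fold change of coculture over MKs cultured alone (horizontal axis) for each member, with SE as error bars, in fits with all 8 libraries (black), without coculture replicate 3 (red) and with the replicate number as a block (green). Dotted lines mark 2-fold, which Bax and Bcl2l1 pass in all of these fits, while the errors of Bak1, Bcl2l11, Apaf1 and Casp9 shrink without replicate 3.

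Ratios between members within a library do not depend on how the libraries are scaled, and are given as log2 ratios of counts (0.5 added to each) with no test. The ratio of Bcl2l1 to Bax, a survival gene to a death effector, was 0.40, 0.08, 0.02 and -0.14 in MKs cultured alone and -0.33, -0.45, -1.10 and -0.55 in the cocultures. In counts, which take no account of gene length, Bax exceeded Bcl2l1 in every coculture, and the ratios of the groups did not overlap. In the main fit Bcl2l1 rose 2.82-fold and Bax 5.02-fold, whereas with the gene length correction these were 4.62-fold and 4.87-fold. With the replicate block joined to that correction they were 3.16-fold and 3.86-fold. The ratios were not computed with the length correction, so the part of gene length in their shift was not tested. Per kilobase of annotated exon, Bax was already above Bcl2l1 in MKs cultured alone, at 30.3 ± 7.47 against 10.8 ± 1.19 CPM. The mean log2 ratios of counts were 0.09 ± 0.23 and -0.61 ± 0.34 (SD, n = 4), a difference of -0.70, or -0.53 without replicate 3. The ratio of Bcl2l1 to Bak1, the pair of the platelet clock, was 3.63 ± 0.42 in MKs cultured alone and 4.0 ± 0.91 in the cocultures. These groups overlapped with and without replicate 3, which was at 2.74, and the other cocultures ran from 4.12 to 4.88 with a mean of 4.42 ± 0.40.

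Among pro-survival genes, the ratio of Bcl2l1 to Mcl1 was -3.72, -3.10, -3.27 and -3.18 in MKs cultured alone and -1.91, -1.25, 0.15 and -1.27 in the cocultures. The groups were far apart, with a mean difference of 2.25, or 1.84 without replicate 3. Ratios to Bcl2l11 turned on replicate 3. That of Mcl1 to Bcl2l11 was 4.27 ± 0.30 alone and 5.07 ± 2.19 in the cocultures, a difference of 0.80 that became -0.29 without replicate 3, where the ratio was 8.35. For Bcl2 to Bcl2l11 the means were 1.07 ± 0.46 and 2.19 ± 3.24, and the difference of 1.12 became -0.49 without replicate 3, where the ratio was 7.02.

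**Figure D3:**
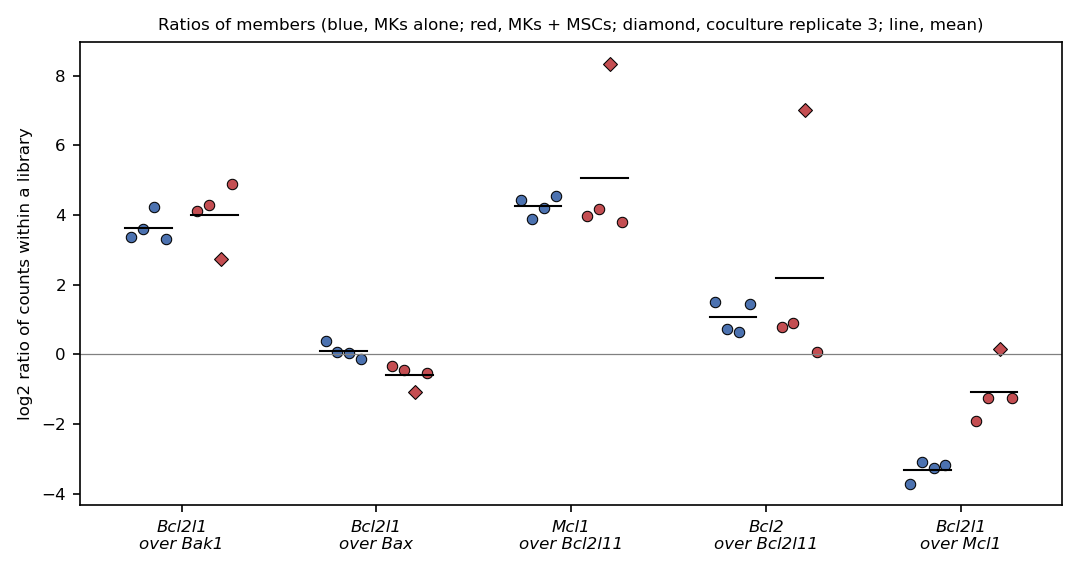
Log2 ratio of counts of paired members within each library (vertical axis), for MKs cultured alone (blue) and cocultured with MSCs (red), with lines at the means and a diamond for coculture replicate 3. The groups separate for Bcl2l1 over Bax and Bcl2l1 over Mcl1, and replicate 3 lies far above all other libraries for both ratios to Bcl2l11.

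Between genes, levels were compared as CPM per kilobase of annotated exon. In MKs cultured alone Mcl1 was highest with 145 ± 16.1 (SD, n = 4), followed by Bax with 30.3 ± 7.47, Bid with 16.0 ± 2.21, Bcl2l1 with 10.8 ± 1.19 and Apaf1 with 10.3 ± 1.42. Lower down were Bcl2 with 6.02 ± 1.46, Casp9 with 4.13 ± 0.42, Bcl2l11 with 3.21 ± 0.44 and Bak1 with 1.68 ± 0.44. The ranges of the neighbours Bcl2l1 and Apaf1 overlapped, as did those of Bcl2 and Casp9, and the other neighbours were apart. In the cocultures without replicate 3 (n = 3), Bax with 91.5 ± 20.6 and Mcl1 with 85.3 ± 11.1 shared the top with overlapping ranges. Bcl2l1 with 22.9 ± 3.49 and Bid with 20.6 ± 3.86 followed, again overlapping. Apaf1 was at 5.40 ± 0.11, Casp9 at 3.22 ± 0.59, Bcl2 at 3.08 ± 0.83, Bcl2l11 at 2.32 ± 0.50 and Bak1 at 2.01 ± 0.32. With all 4 cocultures, Bax was at 152 ± 123 and Mcl1 at 80.2 ± 13.6 CPM per kilobase, and Bak1 moved up to rank 5 at 5.34 ± 6.67.

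The gene whose log2(CPM + 1) ran most like a member over the 8 libraries was found by Pearson's r among 9047 genes with a mean of at least 10 CPM, as a description in which all pairs share libraries, depth and replicate 3. Bcl2l1 was most like Ttll12 (r = 0.998) and Bak1 like Emc6 (0.991). Apaf1 was most like P2ry1, a platelet ADP receptor gene (0.999), Bcl2l11 like Zfc3h1 (0.998) and Casp9 like Mad2l1bp (0.998). Mcl1 ran with Mier1 (0.991), Bcl2 with Ubxn8 (0.985) and Bid with Mybbp1a (0.963). P2ry1, Zfc3h1 and Mad2l1bp were at 0 to 0.105 CPM in replicate 3, as Casp9 was at 0 there, whereas Ttll12 and Emc6 had their highest level in that library.

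Other genes of the pathway were taken from lists of 54 genes, of which 51 were in the table and 50 were tested. Of these, 8 were called higher and 3 lower, beside 13.2% and 7.31% of all genes tested, and the median log2 difference was 0.34 beside 0.03 for all genes. DESeq2 called 10 and 4, beside 15.8% and 10.7%. Without coculture replicate 3 the counts were 12 and 5, beside 20.6% and 15.4%. The 8 called higher were kept when any library was left out, whereas the 3 called lower were not.

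The BH3-only and pore-forming relatives of the members held some of the largest differences. Bok, a pore-forming relative of Bax and Bak1, had 0, 0, 1 and 2 counts in MKs cultured alone and 248, 306, 218 and 115 counts in the cocultures. The cocultures thus held 887 counts against 3, a ratio of 258 after scaling to library size (95% exact interval 87.9 to 1252, counting error only), and its adjusted p was 0.000423 with all libraries and 3.19e-09 without replicate 3. Pmaip1, which encodes the MCL1 antagonist NOXA, was at 16.99, 13.8, 8.21 and 13.3 CPM alone and 115, 118, 39.1 and 93.3 CPM in the cocultures. It rose by log2 2.80 ± 0.41 (adjusted p = 0.00162), or 3.05 ± 0.23 without replicate 3, and in contrast to Bax its lowest coculture was replicate 3. Of the 6 other BH3-only genes tested, Bmf, which links the cytoskeleton to apoptosis, fell by 2.77 ± 0.82 on the log2 scale (adjusted p = 0.0393), and Bnip3l, a mitophagy receptor, fell by 1.01 ± 0.20 (adjusted p = 0.00666). Without coculture replicate 3 the log2 differences were -2.35 ± 0.40 for Bmf and -1.14 ± 0.18 for Bnip3l. Bmf lost its call without any of the 7 other libraries (adjusted p up to 0.108), with the replicate block (0.0914), with library size only (0.0562) and with scaling to MK and platelet markers (0.0598). Bnip3l lost its call without replicate 1 of MKs alone or replicates 2 or 4 of the cocultures and with scaling to the markers, where its fold was under 2, and with the length correction (log2 -0.60, adjusted p = 0.320).

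Of 4 other pro-survival genes tested, Bcl2a1b was called higher, beside 13.2% of all genes. It was at 7.06, 11.6, 4.66 and 4.39 CPM alone and 54.8, 46.0, 246 and 50.7 CPM in the cocultures (log2 3.83 ± 0.69, adjusted p = 0.00450), and without replicate 3 the difference was 2.82. DESeq2 gave Bcl2a1b no p. Copies of Bcl2a1 are nearly identical, so how reads were split among them is uncertain. Of the 5 caspase inhibitors, Xiap, which blocks caspases, fell by 1.07 ± 0.33 on the log2 scale (adjusted p = 0.0475), and by 1.21 ± 0.27 without coculture replicate 3. The Xiap call was lost without any of the 7 other libraries (adjusted p up to 0.126), with the replicate block (0.0810) and with scaling to the markers, where its fold was under 2. With the length correction its difference was -0.24 (adjusted p = 0.791).

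The mitochondrial partners and released factors had 0 of 8 genes called, beside 20.5% of all genes in both directions, and DESeq2 called 1 higher, beside 15.8%. At an unadjusted p under 0.05 in edgeR 2 were higher, and the share of all genes at that cutoff was not computed. Vdac3, an outer membrane channel gene and the most abundant of the 8, differed by log2 0.10 ± 0.18 (adjusted p = 0.727). Vdac1, another such channel gene named after its values were seen, was higher in every coculture by 0.71 ± 0.17 (adjusted p = 0.0171), under the fold cutoff, and Endog, a mitochondrial nuclease gene named likewise, was called higher without replicate 3 (2.15 ± 0.54, adjusted p = 0.00310). Inflammatory caspases had 0 of 3 called by edgeR, beside 20.5% of all genes, and 1 called higher by DESeq2, beside 15.8%. In edgeR 1 was higher at an unadjusted p under 0.05, for which the share of all genes was likewise not computed. The most abundant of the 3, Casp1, differed by -0.52 ± 0.24 (adjusted p = 0.159).

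In the death receptor arm, 1 of 8 genes tested was called, beside 20.5% of all genes, namely Tnfrsf10b, which encodes the mouse TRAIL receptor. It was at 2.65, 2.06, 3.10 and 2.77 CPM alone and 30.8, 31.4, 64.2 and 23.9 CPM in the cocultures, with no overlap (log2 3.82 ± 0.46, adjusted p = 0.000471, and 3.42 ± 0.27 without replicate 3). Among 7 genes of phosphatidylserine exposure and caspase substrates, 1 was called, beside 20.5% of all genes. This was Gsn, the actin-severing gelsolin, a caspase substrate, which was higher with 134 to 236 CPM alone and 492 to 671 CPM in the cocultures (log2 1.52 ± 0.23, adjusted p = 0.00162, and 1.47 ± 0.20 without replicate 3). Bok, Tnfrsf10b and Gsn, like the other members and pathway genes called higher, were higher in the libraries in which MSC markers were also higher. Those markers summed to 1177 to 3973 CPM against 125 to 135 CPM. Replicate 3 had the lowest MSC marker sum of the cocultures. Of the members and pathway genes called higher, it was the lowest coculture for Pmaip1, Mdm2 and Aen. It was the highest for Bcl2l1, Bax, Bcl2a1b, Tnfrsf10b and Cdkn1a, and neither for Bok and Gsn. Among macrophage markers, 8 of 10 were also higher in every coculture. The part of MSC or macrophage RNA in these gene levels was not tested.

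The p53 axis had 3 of 5 genes called higher, beside 13.2% of all genes, and a median log2 difference of 1.21, beside 0.03. Without replicate 3 the same 3 were called, beside 20.6%, and the median was 1.36. The list was chosen with earlier results known, and the 2 genes not called are named after their values were seen. Trp53, which encodes p53, was higher in every coculture (log2 0.83 ± 0.27, adjusted p = 0.0547). Mdm4, a p53 inhibitor gene, was lower in every coculture (log2 -0.78 ± 0.35, adjusted p = 0.144). Cdkn1a, the p53 target that halts the cell cycle, was at 44.4, 49.8, 52.8 and 45.6 CPM alone and 254, 285, 552 and 326 CPM in the cocultures. It rose by log2 2.88 ± 0.28 (adjusted p = 0.000159), or 2.56 ± 0.17 without replicate 3. Aen, an apoptosis-enhancing nuclease, rose by 1.64 ± 0.22 (adjusted p = 0.000928) and Mdm2, the ligase that degrades p53, by 1.21 ± 0.24 (adjusted p = 0.00695). Without replicate 3 these were 1.67 ± 0.18 and 1.36 ± 0.17. Mdm2 was at 142, 99.8, 128 and 120 CPM alone and 330, 296, 178 and 326 CPM in the cocultures, with no overlap and its lowest coculture in replicate 3. Its promoter and that of Bax, both printed above, each held 1 decamer, while the windows of the other called genes of the axis held 2 for Cdkn1a and 0 for Aen, as a description of letters only.

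**Figure D4:**
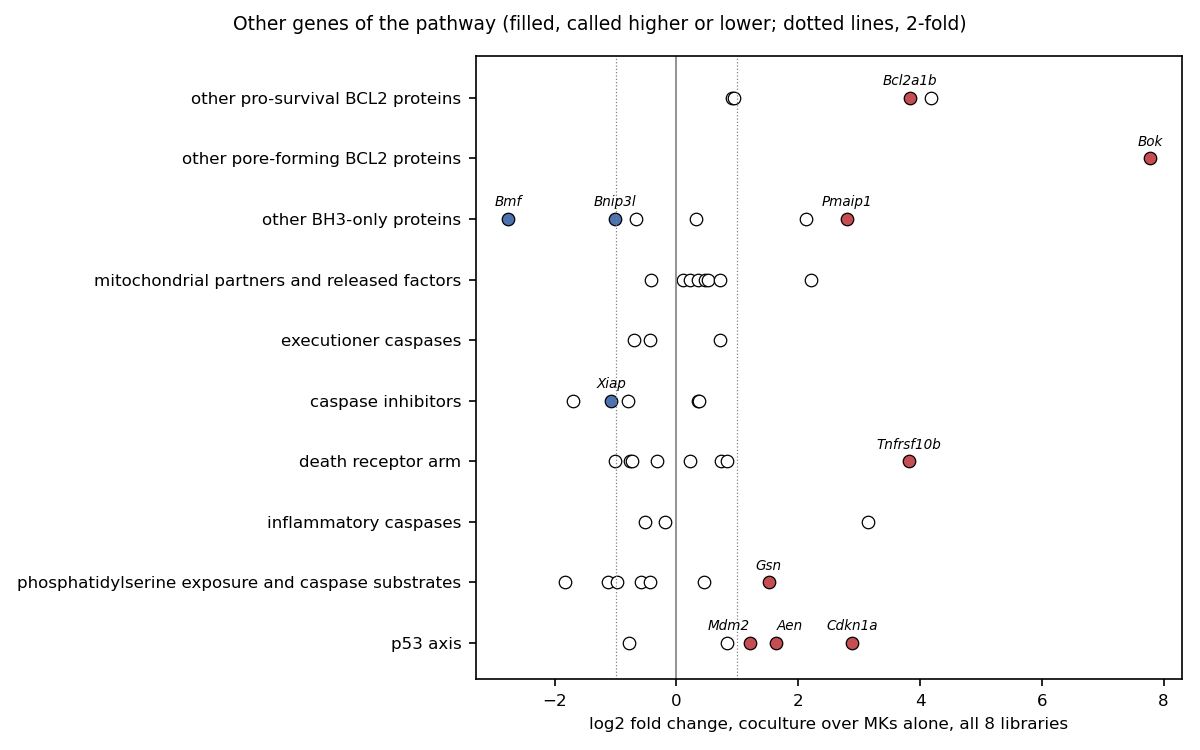
Log2 fold change of coculture over MKs cultured alone (horizontal axis) with all 8 libraries, for the other genes of the pathway in 10 lists (rows), each point 1 gene. Filled points are the 8 genes called higher (red) and 3 called lower (blue), with Bok at 7.77 farthest from 0, and dotted lines mark 2-fold.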

How the data were processed

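RNA of MKs cultured alone (n = 4) or with MSCs (n = 4) was sequenced from low-input SMART-Seq libraries. Reads were trimmed by the authors (fastp) and assigned to mm10 transcripts (kallisto), and DESeq2 is also named in their processing notes. The authors deposited whole-number counts per gene without normalization. How transcripts were summed and whether strand was used is not given in the sources used here.

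All values were computed from these counts with R 4.3.3 and edgeR 4.0.16, using TMM factors, filterByExpr and the quasi-likelihood F test with robust fitting and no covariate (the authors' DESeq2 design had a batch term, whose batches are not given in the sources used here), on all 11722 genes passing the filter. Positions and lengths were those of GENCODE vM21 (GRCm38, the same build as mm10), and promoters from RefSeq. Alternatives were DESeq2 1.42.0, other scalings and filters, the adjusted p alone, a gene length correction, a replicate block, and leaving out each library. The SE given for an edgeR log2 difference was computed as its absolute value divided by the square root of its F statistic. Depth of 3 counts corresponded to 0.284 to 0.662 CPM. The 9 members and the lists were chosen with earlier results of these data known.

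Named genes were all members, up to 3 called genes of each list and direction or else its most abundant gene, the gene most like each member, and the leading gene of each marker list. Genes that overlap a member in the annotation were also named, and the results of 2 genes under this rule are not reported here.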

Additional observations from a re-analysis of the deposited data

Results flagged for a closer look

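Within each group of 4 libraries, the library farthest from the others was examined for the 9 members and the 5 ratios. In 6 of 28 groups its gap to the nearest other library exceeded Dixon's 95% limit, where chance gives about 1 in 20, or 1.4 groups. All 6 were coculture replicate 3. The 5 ratios are built from the members, so the groups are not independent. Bcl2l11 and both ratios to it rest on the same Bcl2l11 counts, so the 6 are not separate events. On the log2(CPM + 1) scale, Bak1 was at 5.25 there, above the other cocultures, while Bcl2l11 was at 0.70, Apaf1 at 2.09 and Casp9 at 0, below them. The log2 ratio of Mcl1 over Bcl2l11 was 8.35 and that of Bcl2 over Bcl2l11 was 7.02, both far above the other cocultures. In the same library 1012 genes had no count although the 7 other libraries each held 10 or more, and the part of this loss in the 6 values was not tested.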

How the results depend on the processing

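The 2 members called higher became 1 with the length correction joined to the replicate block, and ran from 1 to 2 when single libraries were left out. The 0 members called lower became 1 with the adjusted p alone (Mcl1) and 1 with a replicate block without coculture replicate 3 (Bcl2), which was chosen after seeing the data. The log2 difference of Bcl2 turned to 0.78 with the length correction. The 3 pathway genes called lower became 0 with scaling to MK and platelet markers, 1 with the length correction, 0 with the length correction and replicate block, 5 with the replicate block without coculture replicate 3, and 0 to 5 when single libraries were left out. The cause of these changes was not tested. Pathway genes called higher stayed within 1.5 times the main count of 8 under every alternative run. Of the log2 differences of the 9 members, 164 values under the alternatives kept their direction and call, 2 lost the call, 2 gained it and 1 reversed. Without coculture replicate 3 the differences in the ratios of Mcl1 and of Bcl2 to Bcl2l11 changed sign, to -0.29 and -0.49. Levels per length moved beyond the spread in 9 of 18 values when the longest transcript replaced all annotated exons. Requiring 10 counts in each library gave no value for Bcl2l11 and Casp9. Scaling to the markers moved the median log2 difference of all genes to 0.14 and the length correction moved it to 0.35.

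Same-numbered libraries had deviations from their group means that correlated across 11722 genes with r of 0.37, 0.02, 0.15 and 0.03. Pairs of unlike number ran from -0.28 to 0.10, and not every library correlated best with its own number. The replicate numbers were not taken to pair the samples in the main fit. These values cannot exclude pairing, since coculture replicate 3 enters the mean from which the other cocultures deviate. With the replicate block, 2 members were called higher and 0 lower, with a Bcl2l1 log2 difference of 1.38, and the table had 9.35% of genes higher and 4.89% lower. Depth limits the members with few counts, such as Bak1 with 18 to 39 counts in MKs cultured alone.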
